A study of Mus musculus with 12 samples.

Results

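The JAK-STAT pathway and its SOCS feedback inhibitors were examined in mouse eosinophils sorted from blood and from 2 fat depots. The group held 10 genes chosen by name, Jak1, Jak2, Stat3, Stat5a, Stat5b, Socs1, Socs2, Socs3, Cish and Pim1, of 54115 annotated genes. All 10 passed the filter on low counts, which left 15367 genes to test. Socs2, with 38 reads over all blood libraries, passed it through the fat libraries. The 12 libraries came from 5 untreated male wild-type mice (FVB/NJ, 20 weeks old, on chow), with 4 libraries each from blood, gonadal adipose tissue and subcutaneous adipose tissue, named here by tissue and mouse number (blood 2771). In every group the cells were sorted as live cells positive for CD45, CD11b and SiglecF after lysis of red cells. The fat, but not the blood per the labels, had first been digested with collagenase type II at 1 mg/mL and 37 C for 45 min. Digestion and tissue of origin therefore cannot be told apart in any comparison of fat with blood.

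Cytokine receptors of this class have no kinase of their own and carry Janus kinases (JAK). A bound ligand activates the JAK pair, which phosphorylates STAT transcription factors, and these move to the nucleus and bind promoters at sites called GAS. Among their targets are the SOCS genes, including Cish, whose proteins block the receptor or the kinase and so close the loop. In eosinophils the survival cytokines IL-5, IL-3 and GM-CSF share one receptor chain that signals through JAK2 and STAT5, and the kinase gene Pim1 is a known STAT5 target.

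Library depth ranged from 12477671 to 23734940 estimated reads, except for subcutaneous 2846 with 4379954. That library also held 28.1% mitochondrial ribosomal RNA, against 4.66% to 8.79% elsewhere. Of 11 eosinophil markers none was higher and 5 were lower in either depot than in blood (edgeR adjusted p under 0.05), namely Ccr3, Itgam, Ptprc, Cebpe and Gata1, and their summed level was 9084 to 10352 in counts-per-million units (CPM) in blood, 3696 to 8287 in gonadal and 3388 to 8041 in subcutaneous fat. Neutrophil markers summed to 3104 to 4641 CPM in blood, 387 to 814 in gonadal and 427 to 1313 in subcutaneous fat, with 7 of the 9 tested of 10 lower in each depot. Macrophage markers summed to 373 to 913, 1269 to 4628 and 1481 to 5608 CPM, with 7 of 10 higher in gonadal and 8 of 10 in subcutaneous fat. Of 14 genes of the early response to tissue dissociation, 13 were higher in gonadal and 14 in subcutaneous fat, and their sum was 2183 to 2795 CPM in blood, 14449 to 19751 in gonadal and 19543 to 26563 in subcutaneous fat. Monocyte markers summed to 1917 CPM in blood 2807 and 90.0 to 363 CPM in the other blood libraries. B cell markers summed to 471 CPM in blood 2807 and 116 to 152 CPM in the others. Gonadal 2683 had the highest monocyte sum (6700 CPM), the lowest gonadal eosinophil sum and the lowest gonadal Jak1, Jak2, Stat5b, Cish and Pim1. Blood 2771 held 0.830% haemoglobin reads, against at most 0.0169% elsewhere. The part of any of these in the results below was not tested. In such bulk samples, fewer cells of a type and less RNA per cell cannot be told apart.

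Measured per transcript length, in transcripts-per-million units (TPM), the kinase gene Jak1 stood first of the 10 genes in blood and Pim1 stood first in both depots. In blood Jak1 averaged 69.2 TPM, Stat3 48.0, Pim1 41.8, Stat5b 19.8, Jak2 13.5, Socs3 8.62, Stat5a 5.76, Cish 3.89, Socs1 0.402 and Socs2 0.141. In that order only Pim1 and Stat5b, and Cish and Socs1, were neighbours whose library ranges did not overlap. In gonadal fat the order ran Pim1 215, Stat3 80.4, Jak1 47.1, Socs3 15.6, Stat5b 13.8, Jak2 9.51, Cish 9.01, Stat5a 3.94, Socs2 2.05 and Socs1 0.336 TPM. There the ranges of neighbours were separate between Jak1 and Socs3 and between Socs2 and Socs1. In subcutaneous fat it ran Pim1 194, Jak1 58.8, Stat3 52.5, Socs3 26.8, Stat5b 12.7, Jak2 9.88, Cish 5.39, Stat5a 3.98, Socs2 1.42 and Socs1 0.309 TPM, with separate ranges only between Stat5a and Socs2. Pim1 lay above the next gene in 4 of 4 libraries of each depot, although the group ranges overlapped. TPM was summed over all transcripts of a gene, short non-coding ones included, where a few reads weigh heavily. Socs3 had 16.3 TPM at 17.3 CPM in blood 2807 but 4.18 TPM at 30.9 CPM in blood 2771. The share of its reads outside coding transcripts was 7.60% in blood 2807 and 0.168% in blood 2771. How far such reads set the order of the genes was not tested.

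Against blood, 3 of the 10 genes were higher in gonadal fat (Socs2, Socs3 and Pim1) and 3 were lower (Jak1, Jak2 and Stat5b), where the call is an adjusted p under 0.05 in edgeR's quasi-likelihood test with Benjamini-Hochberg adjustment over all genes. Over all genes tested, 27% were called, 15.4% higher and 11.6% lower. Against blood, 3 were higher (the same genes, Socs2, Socs3 and Pim1) and 2 were lower (Jak2 and Stat5b) in subcutaneous fat, where 26.8% of all genes were called, 15.4% higher and 11.4% lower. In both counts Socs2 had entered the test through the fat libraries, so its direction was bound to the low-count filter. The median log2 fold change over the 10 genes was -0.03 in gonadal and -0.05 in subcutaneous fat, beside 0.08 and 0.07 over all genes. Libraries did not overlap with blood for 3 higher and 4 lower genes in gonadal fat and for 3 and 2 in subcutaneous fat, beside 18.6% and 17.7% of all genes (36.3% in either direction) and 13.8% and 15.7% (29.5%). Without blood 2771 the gonadal counts were 1 higher and 1 lower. The subcutaneous count of lower genes was 1 with mouse as a block, 1 without blood 2771 or subcutaneous 2846 or 2771, and 0 without blood 2683. Both comparisons use the same 4 blood libraries. The plot of single libraries shows every value, and the plot of fold changes shows each with its interval.

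**Figure D1:**
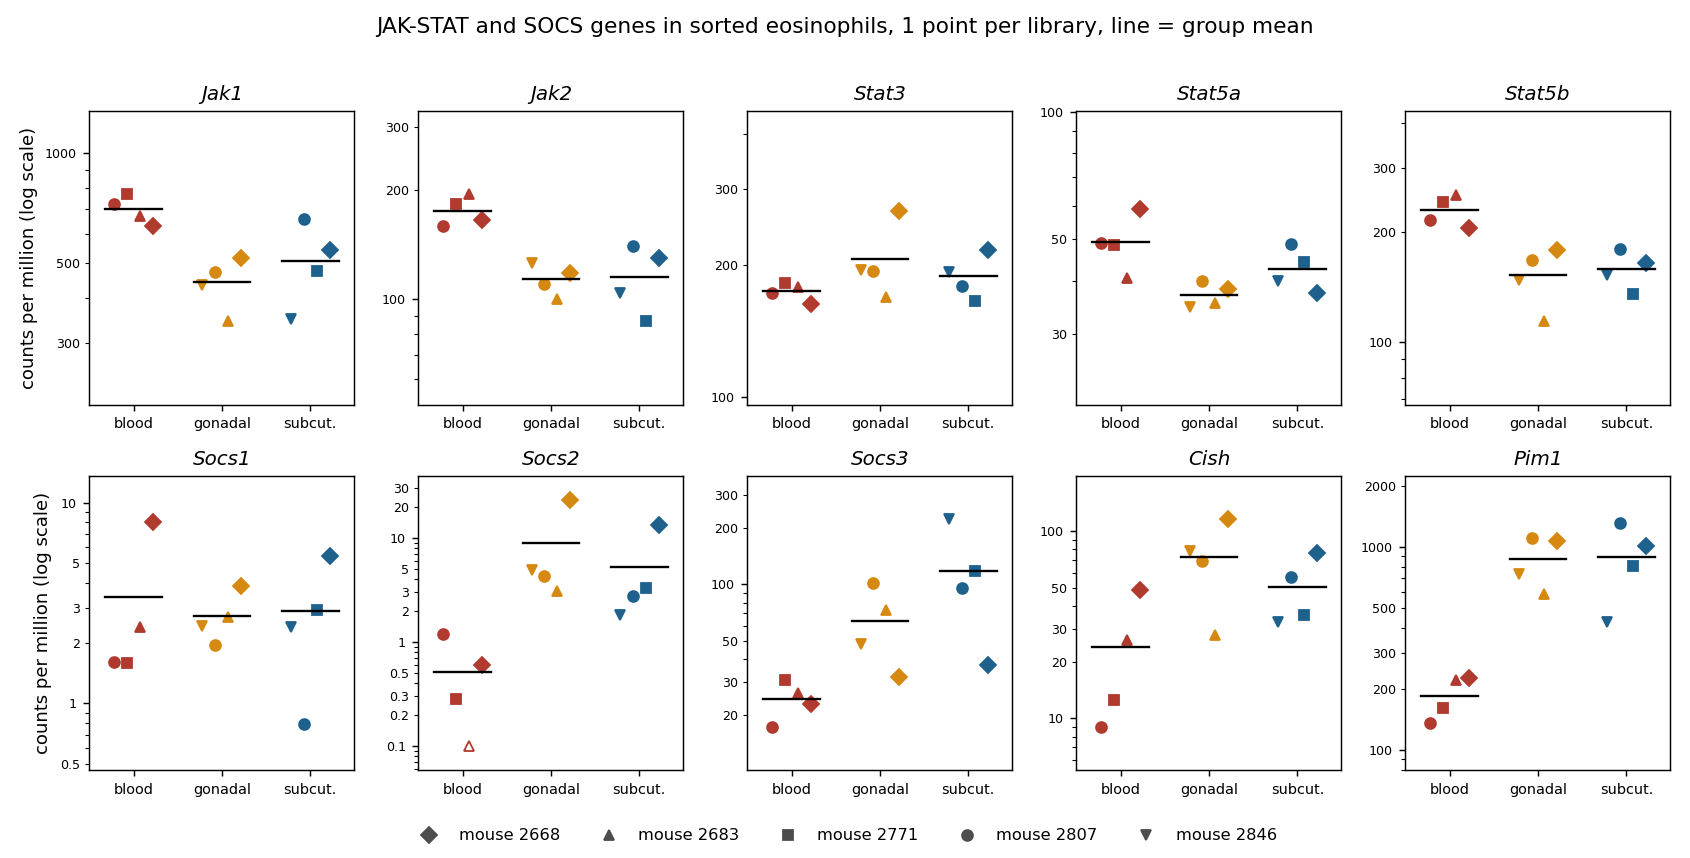
Level of each of the 10 genes in CPM (vertical axes, log scale, scaled separately for each gene) in blood, gonadal and subcutaneous libraries, with 1 point per library, the symbol giving the mouse and the line the group mean of 4 libraries. The open triangle for Socs2 marks the blood library with 0 reads, drawn at the foot of the axis; Pim1 in both depots lies above all 4 blood libraries, while the Jak2 and Stat5b points of both depots lie below them.

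**Figure D2:**
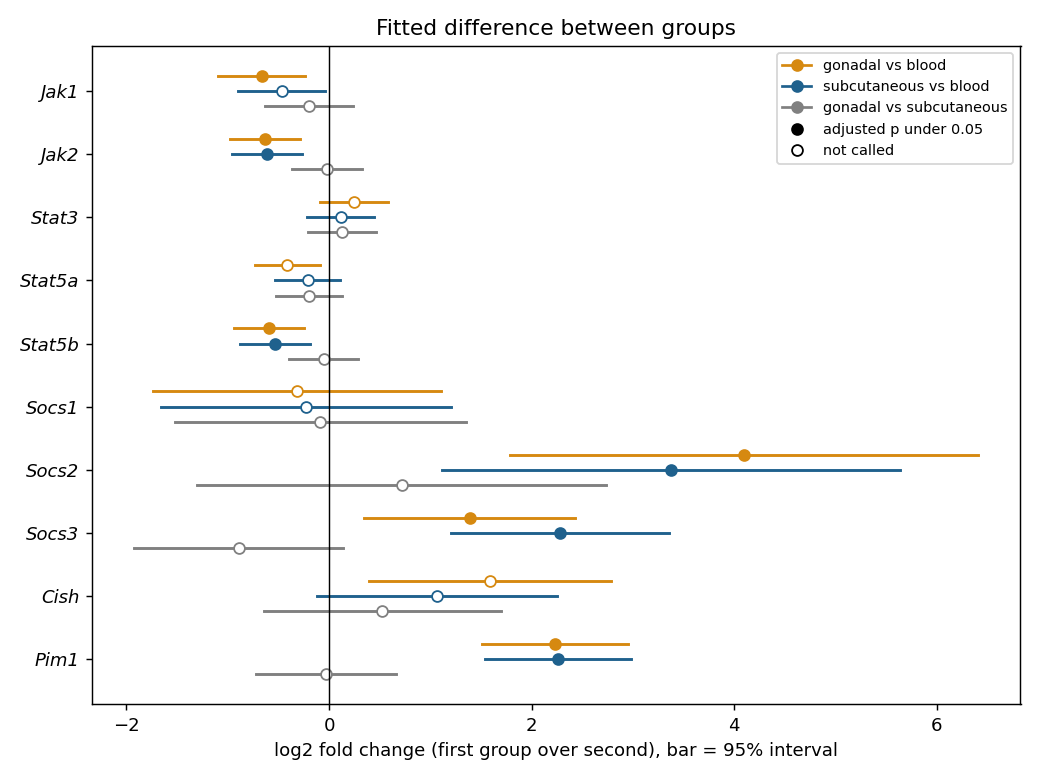
Fitted log2 fold change (horizontal axis) of each gene in 3 comparisons, with bars for the 95% interval and filled points for an adjusted p under 0.05. Socs2, Socs3 and Pim1 lie to the right of 0 in both comparisons with blood, Jak2 and Stat5b lie to the left, and the gray intervals of gonadal against subcutaneous fat all span 0.

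The kinases come first. Values of single libraries are listed for mice 2807, 2771, 2683 and 2668 in blood, for mice 2846, 2807, 2683 and 2668 in gonadal fat, and for mice 2846, 2807, 2771 and 2668 in subcutaneous fat. Jak1 (chromosome 4, 101152367 to 101265282, minus strand, mm10) serves most receptors of the class. It stood at 725, 770.1, 673 and 632 CPM in blood, at 432, 471, 346 and 515 CPM in gonadal fat and at 349, 659.9, 473 and 540.4 CPM in subcutaneous fat. All gonadal libraries lay below all blood libraries, and 1 subcutaneous library reached into the blood range. In gonadal fat Jak1 fell by 0.67 on the log2 scale (SE 0.200, edgeR adjusted p = 0.0270), to 63.0% of the blood level. In subcutaneous fat its log2 fold change was -0.47 (SE 0.200, edgeR adjusted p = 0.0987). The gonadal call was narrow: with the mouse as a block the value was -0.59 (edgeR adjusted p = 0.0756), and the adjusted p ran from 0.0503 to 0.0782 without any one of blood 2807, 2771 and 2683 or gonadal 2846, 2807 and 2683. Without subcutaneous 2807, the one within the blood range, the subcutaneous value was -0.63 (edgeR adjusted p = 0.0381).

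Jak2 (chromosome 19, 29251828 to 29313080, plus strand) is the kinase attached to the shared chain of the IL-5, IL-3 and GM-CSF receptors. Its levels were 159, 183, 195 and 165 CPM in blood, 126, 110.3, 100.4 and 118 CPM in gonadal fat and 104, 139.8, 86.8 and 129.7 CPM in subcutaneous fat. Every fat library lay below every blood library. Jak2 fell by 0.63 in gonadal (SE 0.160, edgeR adjusted p = 0.0126) and by 0.61 in subcutaneous fat (SE 0.160, edgeR adjusted p = 0.0152) on the log2 scale, to 64.6% and 65.5% of blood. The gonadal call held in all 22 alternative analyses that were run, and the subcutaneous one in 20. It was missed with a correction for effective transcript length (-0.45, edgeR adjusted p = 0.0827) and without blood 2683 (-0.56, edgeR adjusted p = 0.0508).

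Of the transcription factors, Stat5b fell in both depots, and Stat5a and Stat3 did not pass the test. Stat5a and Stat5b encode closely similar proteins side by side on chromosome 11, with 8626 bases between the genes, so that the split of any shared reads is an estimate, and Stat3 is the next gene, sharing 72 bases with the end of Stat5a. Stat5b (chromosome 11, 100780731 to 100850724, minus strand) had 217, 243, 254 and 206 CPM in blood, 148, 168, 115 and 179 CPM in gonadal fat and 153, 179.8, 136 and 165 CPM in subcutaneous fat. No fat library reached the lowest blood library. The log2 fold change was -0.59 in gonadal (SE 0.160, edgeR adjusted p = 0.0165) and -0.54 in subcutaneous fat (SE 0.160, edgeR adjusted p = 0.0260). In the fit blocked on mouse the subcutaneous value was -0.57 (edgeR adjusted p = 0.0689). The gonadal adjusted p was 0.0503 and 0.0550 without blood 2771 and 2683, and the subcutaneous one lay between 0.0575 and 0.0771 without either of them or without subcutaneous 2846 or 2771.

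Stat5a (chromosome 11, 100859351 to 100885169, plus strand) was the less abundant of the STAT5 pair. It stood at 49.1, 48.5, 40.5 and 59.1 CPM in blood, 34.7, 39.9, 35.5 and 38.3 CPM in gonadal fat and 39.8, 48.7, 44.2 and 37.4 CPM in subcutaneous fat. The gonadal libraries lay just below the blood ones without overlap, as 17.7% of all genes did, and the subcutaneous libraries overlapped with blood. Its log2 fold change was -0.41 in gonadal (SE 0.148, edgeR adjusted p = 0.0561) and -0.21 in subcutaneous fat (SE 0.149, edgeR adjusted p = 0.309). In 8 of 22 alternatives the gonadal adjusted p passed 0.05, among them DESeq2 (0.0390), limma-voom (0.0424) and coding transcripts only (-0.50, 0.0351), and the absence of blood 2683 (0.0459) or subcutaneous 2846 (0.0499).

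Stat3 (chromosome 11, 100885098 to 100939540, minus strand) carries the signals of IL-6, IL-10 and oncostatin M. The libraries held 173, 182, 179 and 163 CPM in blood, 196, 195, 169 and 266 CPM in gonadal fat and 193, 179, 166 and 217 CPM in subcutaneous fat. The groups overlapped, and mouse 2668 was highest in both depots and lowest in blood. The log2 fold change was 0.24 in gonadal (95% interval -0.09 to 0.58, edgeR adjusted p = 0.266) and 0.11 in subcutaneous fat (95% interval -0.22 to 0.45, edgeR adjusted p = 0.615). The sign turned when only transcripts annotated as protein-coding were counted, to -0.17 (edgeR adjusted p = 0.406) and -0.10 (edgeR adjusted p = 0.625).

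The spread of Stat3 reads over its transcripts, an estimate because the transcripts overlap, was also compared, and no difference passed adjustment. The share of Stat3 reads assigned to transcripts not annotated as protein-coding, mostly retained introns, was 20.8%, 17.2%, 25.5% and 24% in blood, 41.2%, 41.9%, 26.4% and 47.2% in gonadal fat and 42.0%, 24.7%, 37.1% and 39.1% in subcutaneous fat. The gonadal libraries all lay above the blood libraries, by 17.3 percentage points on average, and 1 subcutaneous library fell within the blood range. A single retained-intron transcript of 1995 bases went from 3.29% ± 0.83 in blood to 9.85% ± 2.16 in gonadal and 12.1% ± 2.59 in subcutaneous fat (SD, n = 4 each), without overlap between blood and either depot. A 2-sided exact permutation test of the gonadal difference gave p = 0.0286, the smallest that 4 against 4 libraries allow, and 0.200 after Benjamini-Hochberg adjustment over 21 tests (7 genes with such transcripts in 3 comparisons). For subcutaneous fat the exact p was 0.0571 (adjusted 0.3). This measure was chosen after its values were seen.

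Jak1 libraries separated from blood in both depots, at a lower level, with 6.58% ± 0.930 of its reads outside coding transcripts in blood, 8.49% ± 0.892 in gonadal and 10.04% ± 1.92 in subcutaneous fat (SD, n = 4 each; exact permutation p = 0.0286 for each depot, adjusted 0.200). Over all protein-coding genes the share was 17.5% ± 1.07 in blood, 18.8% ± 1.74 in gonadal and 20.6% ± 1.18 in subcutaneous fat (SD, n = 4 each). The subcutaneous shift of 3.17 points there also separated the libraries from blood (exact permutation p = 0.0286), and the gonadal shift of 1.34 points did not (exact permutation p = 0.229). The shift of Stat3 was larger in points than that of all genes together, a difference that was not tested. Pim1 stayed at 5.53% ± 1.80, 6.16% ± 1.26 and 4.55% ± 0.642 in blood, gonadal and subcutaneous libraries, with overlap.

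**Figure D3:**
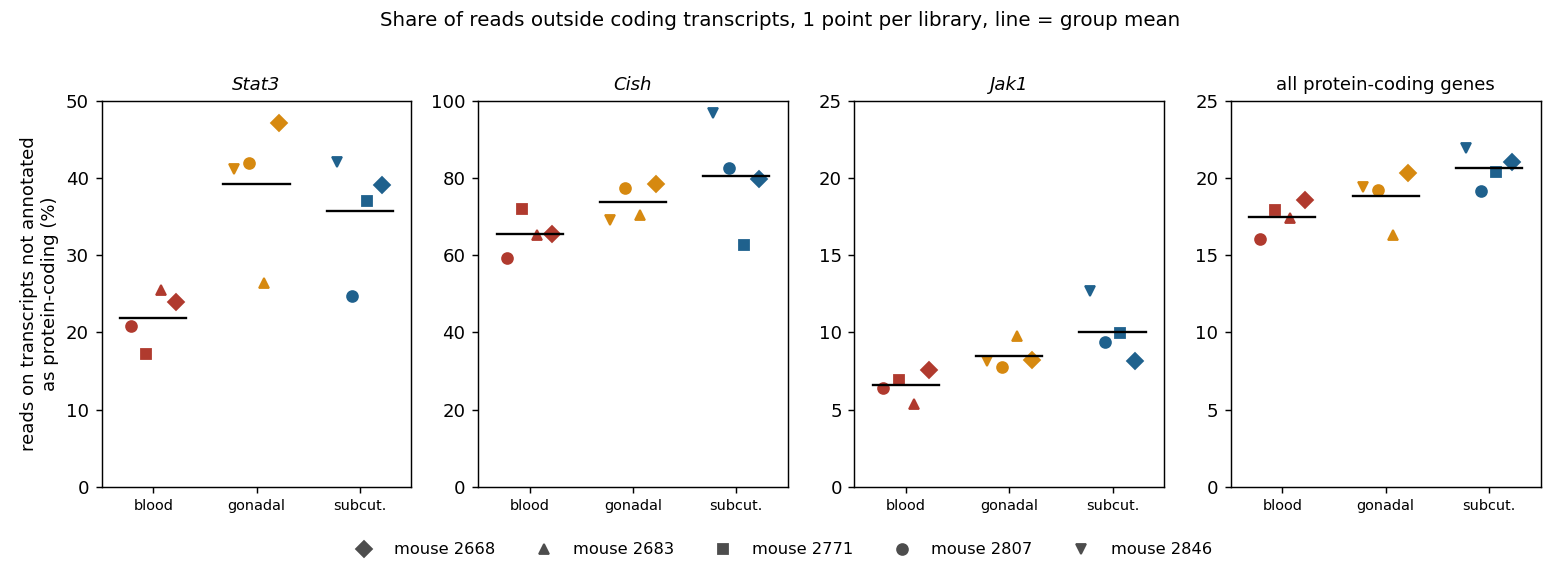
Percent of estimated reads (vertical axes, each from 0 with its own upper end) assigned to transcripts not annotated as protein-coding, for Stat3, Cish, Jak1 and all protein-coding genes together, with 1 point per library and a line at the group mean. For Stat3 the gonadal points, 26.4% to 47.2%, all lie above the blood points, 17.2% to 25.5%; for Cish most reads lie outside coding transcripts in every group.

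Among the feedback inhibitors Socs3 and Socs2 rose in both depots, Cish had a higher mean in both without passing the test, and Socs1 had overlapping values. Promoters of 9 of the 10 genes were found in the RefSeq promoter table of GRCm38.p6, as 12 windows of 250 bases before to 50 bases after a transcript start. The GAS motif was searched as TTCNNNGAA, which reads the same on both strands, and occurred in 2 of the 12 windows, those of Socs3 and Cish. It occurs in 8.30% of all 32851 windows. The stretches are shown because they belong to the feedback genes, with the motif in capitals and all bases 5′ to 3′ along the gene's strand.
Socs3, chr11:117969497-117969535, minus strand: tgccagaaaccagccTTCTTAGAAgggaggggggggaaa
Cish, chr9:107296649-107296678, plus strand: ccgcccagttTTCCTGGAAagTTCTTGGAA
The Socs3 motif begins 154 bases before the transcript start, and the first of the Cish pair begins at the first transcribed base. Windows with at least 2 motifs make up 0.457% of all. The AP-1 motif TGANTCA, searched on both strands, was in none of the 12 windows and in 7.81% of all. A match here describes letters only, and binding was not measured.

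Socs3 (chromosome 11, 117966079 to 117970047, minus strand) inhibits signals through gp130 and the G-CSF receptor. It stood at 17.3, 30.9, 26.1 and 23.0 CPM in blood, at 47.7, 102, 73.2 and 31.9 CPM in gonadal fat and at 224, 95.6, 119 and 36.9 CPM in subcutaneous fat. All fat libraries lay above all blood libraries, the nearest being those of mouse 2668. Socs3 rose 4.85-fold in subcutaneous fat (log2 fold change 2.28, SE 0.492, edgeR adjusted p = 0.00646), a call that held in 22 of 22 alternatives. Its highest subcutaneous library, that of mouse 2846, was also the one of low depth with the highest fibroblast marker sum (4165 CPM), and without it the value was 1.80 (edgeR adjusted p = 0.0126). In gonadal fat it rose 2.62-fold (log2 fold change 1.39, SE 0.478, edgeR adjusted p = 0.0498), a call that held in 7 of 22. With the mouse as a block the gonadal value was 1.23 (edgeR adjusted p = 0.0978), and with a correction for effective transcript length 0.96 (edgeR adjusted p = 0.230). Leaving out any blood library, gonadal 2846, 2807 or 2683, or subcutaneous 2807 or 2771 gave values of 1.03 to 1.52 with adjusted p of 0.0609 to 0.142.

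Socs2 (chromosome 10, 95385362 to 95417180, minus strand), known for restraining growth hormone signals through STAT5, was nearly absent from blood. It had 1.19, 0.282, 0 and 0.595 CPM in blood, 4.89, 4.32, 3.10 and 23.1 CPM in gonadal fat and 1.80, 2.77, 3.28 and 13.3 CPM in subcutaneous fat. The blood values rest on 38 reads in all, and the 0 of mouse 2683 allows up to 0.157 CPM (3 reads, counting error only). All fat libraries lay above all blood libraries, and mouse 2668 stood apart from the other mice in both depots. The log2 fold change was 4.10 in gonadal (SE 1.07, edgeR adjusted p = 0.0146) and 3.38 in subcutaneous fat (SE 1.04, edgeR adjusted p = 0.0313). Without mouse 2668's gonadal library the gonadal value was 2.98, and it still passed. Without its subcutaneous library the subcutaneous value was 2.39 (edgeR adjusted p = 0.0924). The subcutaneous adjusted p was also between 0.0544 and 0.0873 without blood 2771, 2683 or 2668, and the gonadal one was 0.0504 without that of mouse 2771.

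Cish (chromosome 9, 107296026 to 107302784, plus strand) encodes CIS, an inhibitor of STAT5 signalling and itself a known STAT5 target. Its levels were 9.02, 12.5, 26.3 and 48.7 CPM in blood, 78.0, 69.0, 27.9 and 116 CPM in gonadal fat and 32.6, 56.7, 35.5 and 76.3 CPM in subcutaneous fat. The groups overlapped because blood 2668 stood above the lowest fat libraries. The log2 fold change was 1.59 in gonadal (SE 0.548, edgeR adjusted p = 0.0502) and 1.06 in subcutaneous fat (SE 0.543, edgeR adjusted p = 0.166). The gonadal difference passed the threshold without blood 2668 (2.16, edgeR adjusted p = 0.0183) or gonadal 2683 (1.84, edgeR adjusted p = 0.0348), in DESeq2 (adjusted p = 0.0103) and in limma-voom (adjusted p = 0.00674).

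Most Cish reads were not on coding transcripts. Transcripts of other classes, chiefly a processed transcript of 4697 bases, took 59.2% to 72.0% of them in blood, 69.1% to 78.4% in gonadal and 62.7% to 97% in subcutaneous fat. With coding transcripts alone the log2 fold change of Cish was 1.13 in gonadal (edgeR adjusted p = 0.255) and 0.32 in subcutaneous fat (edgeR adjusted p = 0.775). A pair of predicted genes on the opposite strand overlap Cish, and neither exceeded 0.515 CPM in any library.

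Socs1 (chromosome 16, 10782240 to 10785536, minus strand), the inhibitor of interferon signalling, had 1.6, 1.6, 2.41 and 7.99 CPM in blood, 2.44, 1.95, 2.71 and 3.84 CPM in gonadal fat and 2.40, 0.792, 2.91 and 5.45 CPM in subcutaneous fat. All groups overlapped, and the range of 27 to 161 reads per blood library leaves little precision. The log2 fold change was -0.31 in gonadal (95% interval -1.74 to 1.11, edgeR adjusted p = 0.765) and -0.23 in subcutaneous fat (95% interval -1.66 to 1.21, edgeR adjusted p = 0.828). Without blood 2668 the signs turned, to 0.52 (edgeR adjusted p = 0.621) and 0.61 (edgeR adjusted p = 0.544).

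Pim1 (chromosome 17, 29490753 to 29496112, plus strand), a serine/threonine kinase that promotes survival downstream of STAT5, had the lowest adjusted p of the 10 genes in both comparisons with blood. It stood at 136, 161, 221 and 225 CPM in blood, at 735, 1105, 585 and 1065 CPM in gonadal fat and at 426, 1315, 809 and 1013 CPM in subcutaneous fat. The lowest fat library was well above the highest blood library. Pim1 rose 4.70-fold in gonadal fat (log2 fold change 2.23, SE 0.334, edgeR adjusted p = 0.000575) and 4.80-fold in subcutaneous fat (log2 fold change 2.26, SE 0.335, edgeR adjusted p = 0.000576). Both calls held in 22 of 22 alternatives, which gave log2 fold changes of 2.07 to 2.36 in gonadal and 2.01 to 2.51 in subcutaneous fat. Among the depot libraries, those of mouse 2807 held the most Pim1 and also the highest sums of the early response genes (19751 CPM in gonadal and 26563 CPM in subcutaneous fat), whose part in the Pim1 level was not tested. An antisense gene that overlaps Pim1 reached at most 2.81 CPM.

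Set side by side within the same mouse, Socs2, Socs3, Cish and Pim1 were higher in fat than in blood in 3 of 3 mice for each depot, and Jak1, Jak2, Stat5a and Stat5b were lower in 3 of 3. Some of these differences were close to 0: Stat5a in subcutaneous fat differed by -0.012 on the log2 scale in mouse 2807 and -0.135 in mouse 2771. The blood libraries of mice 2807 and 2668 serve both depots. How many of all genes agree in 3 of 3 mice was not counted. For Cish the within-mouse log2 differences ran from 0.09 to 2.92 in gonadal and from 0.65 to 2.64 in subcutaneous fat, with mouse 2807 at the upper end of both. For Pim1 they ran from 1.41 to 3.02 and from 2.17 to 3.27, again with mouse 2807 highest. Stat3 was higher in 2 of 3 mice for each depot, and Socs1 in 2 of 3 for gonadal and 1 of 3 for subcutaneous fat. Mouse 2668 had the highest Cish and Socs1 of all mice in blood and in both depots, as it had for 5% of all genes, and it was highest in both depots for Socs2 and Stat3 as well (12.1% of genes) but lowest in both for Socs3 (11.2% of genes). In both depots mouse 2668 also had the highest eosinophil marker sums, 8287 CPM in gonadal and 8041 CPM in subcutaneous fat, whose part in these levels was not tested.

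**Figure D4:**
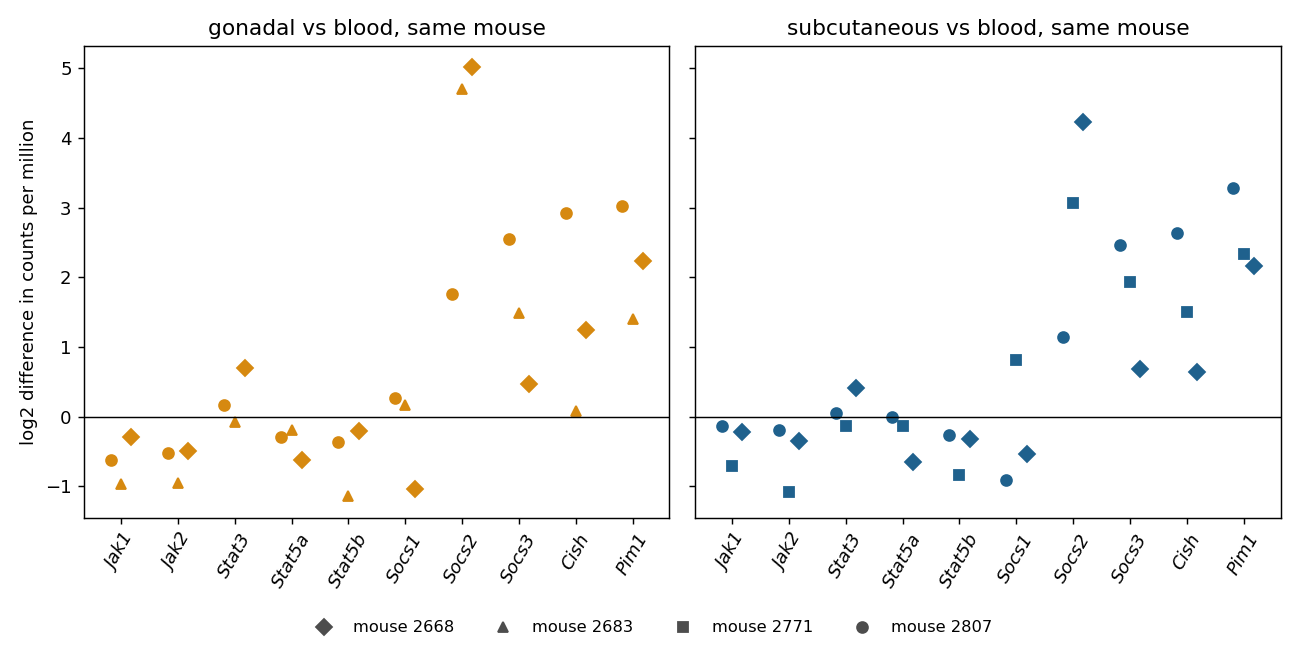
Log2 difference in CPM (vertical axis) between fat and blood of the same mouse, for 3 mice with gonadal fat (left) and 3 with subcutaneous fat (right), with 1 point per mouse and gene. Socs2, Socs3, Cish and Pim1 lie above 0 for every mouse in both panels, and Jak1, Jak2, Stat5a and Stat5b lie below 0, although Stat5a of mouse 2807 on the right is at -0.012.

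Between gonadal and subcutaneous fat none of the 10 genes was called by edgeR, beside 1 gene or 0.00651% of all genes, and none reached an unadjusted p under 0.05, against 8.03% of all genes. The libraries of the depots overlapped for all 10, beside 1.94% of all genes without overlap in the higher and 1.69% in the lower direction (3.62% together). DESeq2 and limma-voom called none of the 10 either. The lowest p of the 10 belonged to Socs3, which averaged 63.7 ± 30.7 CPM in gonadal and 119 ± 78.0 CPM in subcutaneous fat (SD, n = 4 each), a log2 difference of -0.89 (95% interval -1.92 to 0.14, edgeR adjusted p = 0.682). For Pim1 the difference was -0.03 (95% interval -0.72 to 0.66), for Jak2 -0.02 (-0.37 to 0.33), for Stat5b -0.05 (-0.40 to 0.29) and for Socs2 0.72 (-1.30 to 2.73). The intervals were narrow for the kinases and STAT genes and left room for several-fold differences in Socs1, Socs2, Socs3 and Cish.

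Likeness across the 12 libraries was measured next. As the root mean square difference of log2 CPM after centring each gene, Jak2 and Stat5b were 0.14 apart, Jak1 and Stat5b 0.18 and Jak1 and Jak2 0.21. Of the genes called higher, Socs3 and Pim1 were the nearest pair, at 1.04, and Cish, which was not called, was 0.65 from Pim1. Among 5435 other genes of at least 20 CPM, those most like Pim1 were Litaf (0.19) and Slc16a3 (0.27), where the median gene differed from Pim1 by 1.21. Cish was most like Fer (0.38) and Lrp4 (0.48), Socs3 most like Cmklr1 (0.42) and Dclre1c (0.44), and Socs2 most like Fgfr1 (0.77), Vmn2r26 (0.80) and Bcl2a1b (0.81). Jak2 was closest to Rnf146 (0.10), Jak1 to Senp6 (0.10), Stat5b to Git2 (0.08), Stat5a to Ube4a (0.12), Stat3 to Nfkb1 (0.12) and Socs1 to Lmna (0.59). These distances share the libraries and are a description.

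The other genes of the pathway were read from lists. The counts of every list stand beside the shares of all genes called. These were 15.4% higher and 11.6% lower in gonadal fat, and 15.4% and 11.4% in subcutaneous fat. Of 6 further JAK and STAT genes, 0 were higher and 3 lower in gonadal fat (median log2 fold change -0.55) and 0 and 1 in subcutaneous fat (median -0.24). Without blood 2807 1 gene was called higher in each depot. Stat6, which carries IL-4 and IL-13 signals, fell from 427.7, 482, 504.9 and 572.2 CPM in blood to 260.8, 242.3, 205.9 and 263.4 CPM in gonadal and 210.2, 286.6, 241.8 and 262.9 CPM in subcutaneous fat. All fat libraries lay far below all blood libraries, and the log2 fold changes were -1.03 (SE 0.154, edgeR adjusted p = 0.000572) and -0.99 (SE 0.154, edgeR adjusted p = 0.000807). Stat4 was also lower in gonadal fat, with 2.85 CPM against 10.4 in blood. Of the 4 other SOCS genes Socs5 fell in both depots, from 31.5 ± 2.82 to 13.3 ± 1.97 CPM in gonadal (SD, n = 4 each, edgeR adjusted p = 0.00184) and 17.8 ± 5.19 CPM in subcutaneous fat (edgeR adjusted p = 0.0169), and none rose in either, with 1 higher in gonadal fat when blood 2807 was left out (list medians -0.19 and -0.21).

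Of 13 further negative regulators, 1 rose and 5 fell in gonadal fat, and 0 rose and 5 fell in subcutaneous fat (median log2 fold changes -0.35 and -0.45). Besides the genes below, Sh2b3 and Cblb fell in both. Ptpn6, the phosphatase SHP-1, fell from 706 ± 79.95 CPM in blood to 337 ± 57.8 in gonadal (SD, n = 4 each, edgeR adjusted p = 0.00827) and 339 ± 122 CPM in subcutaneous fat (edgeR adjusted p = 0.00887). Pias3, an inhibitor of STAT3, fell from 48.1 ± 7.79 to 24 ± 3.63 in gonadal (edgeR adjusted p = 0.00324) and 20.6 ± 4.51 CPM in subcutaneous fat (edgeR adjusted p = 0.00110). The adaptor gene Dok2 fell to 0.521-fold and 0.320-fold of blood (edgeR adjusted p = 0.0170 and 0.000870). The falls of Ptpn6, Pias3 and Dok2 held in all 22 alternatives, except that of Ptpn6 in subcutaneous fat with the effective length correction (adjusted p = 0.0866). Ptpn11, the phosphatase SHP-2, rose 1.37-fold in gonadal fat (edgeR adjusted p = 0.0270), with 0.0818 in the fit blocked on mouse. Leaving out one gonadal library or one of blood 2771, 2683 and 2668 gave 0.0581 to 0.105.

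Receptor genes moved both ways. Of the 5 chains for IL-5, IL-3 and GM-CSF, 2 rose in each depot and none fell, namely Il3ra, with a mean of 7.68 CPM in gonadal, 5.52 in subcutaneous fat and 1.26 in blood, and Csf2rb, the shared signalling chain (list medians 0.60 and 0.46). Csf2rb had 290.3, 303.2, 408.5 and 443 CPM in blood, 773.4, 792.7, 464.4 and 1352 CPM in gonadal fat and 354, 779.1, 693.6 and 1304 CPM in subcutaneous fat. Mouse 2668 was highest in each group, as it was for Cish, and 1 subcutaneous library lay within the blood range. The folds were 2.34 (edgeR adjusted p = 0.0300) and 2.17 (edgeR adjusted p = 0.0443), calls that held in 13 and 11 of 22 alternatives. The gonadal adjusted p was 0.0570 to 0.0898 without any one blood library or gonadal 2846, 2807 or 2668. The subcutaneous one was 0.0665 to 0.126 without any one blood library, gonadal 2846 or 2807, or subcutaneous 2807, 2771 or 2668. The IL-5 receptor alpha chain gene Il5ra had 122 CPM on average in blood, 101 in gonadal and 120.5 in subcutaneous fat (edgeR adjusted p = 0.546 and 0.984).

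Of 27 other tested receptor chains, 8 rose and 3 fell in gonadal fat and 10 rose and 2 fell in subcutaneous fat (median log2 fold changes 0.76 and 0.75). Over all genes 15.4% were higher in each depot, and 11.6% and 11.4% lower. Among the risers in both depots, Osmr and Epor averaged 0 and 0.0117 CPM in blood. They passed the low-count filter through the fat libraries, so their direction was bound to that selection. The number that rose was 5 in gonadal fat without blood 2771 or 2683, and in subcutaneous fat it was 5 without blood 2771 and 6 without blood 2683 or 2668. Of 10 tested T cell and NK cell markers, 6 were lower in gonadal fat and 3 higher in subcutaneous fat, with sums of 14.5 to 46.8 CPM in blood, 3.53 to 6.63 in gonadal and 31.1 to 268 in subcutaneous fat. Il2rb and Il21r, receptor chains of lymphocytes, were among the chains that rose in subcutaneous fat, to 10.6 and 10.8 CPM on average from 0.414 and 2.79 in blood. Il2rb averaged only 0.294 CPM in gonadal fat as well. It thus passed the low-count filter with the help of the subcutaneous libraries, and its direction there was bound to that selection. Of 8 fibroblast markers 7 were higher in each depot (median log2 fold changes 6.67 and 8.34), with sums of 122 to 204 CPM in blood and 159 to 508 CPM in gonadal fat. The gonadal sums thus overlapped with blood and differed from it far less than the median, which weighs each marker alike whatever its level. The part of lymphocytes and fibroblasts in the receptor counts was not tested. Both IL-10 receptor genes rose in fat. Il10ra rose 3.32-fold and 2.67-fold (edgeR adjusted p = 0.00688 in gonadal and 0.0178 in subcutaneous fat, and 0.0524 in the latter without blood 2771), and Il10rb rose 2.11-fold and 1.89-fold (edgeR adjusted p = 0.000540 and 0.00162). Csf3r, the G-CSF receptor gene, fell by 4.87 and 4.13 on the log2 scale. It is itself one of the neutrophil markers summed and counted above. The chain genes Lifr and Il6st, which are also expressed by connective tissue cells, had calls that hung on single libraries. Lifr rose 6.56-fold in gonadal (edgeR adjusted p = 0.0418) and 9.71-fold in subcutaneous fat (edgeR adjusted p = 0.0220), with 0.0604 and 0.0539 when mouse was a block. Its gonadal adjusted p was 0.0555 to 0.107 without any one gonadal library, blood 2771, 2683 or 2668, or subcutaneous 2771 or 2668. Its subcutaneous one was 0.0504 to 0.0615 without blood 2771 or 2683 or subcutaneous 2846. Il6st rose 4.90-fold in subcutaneous fat (edgeR adjusted p = 0.0464), a value that became 0.0522 to 0.122 without any one gonadal library, any one subcutaneous library but 2668, or blood 2771, 2683 or 2668. The subcutaneous library of mouse 2846 held the most Lifr and Il6st, at 209.6 and 171.9 CPM, and also the highest sum of fibroblast markers, 4165 CPM against 257 to 420.0 in the other subcutaneous libraries. Ifngr2 fell to 0.608-fold and 0.556-fold (edgeR adjusted p = 0.0262 and 0.0130), and in subcutaneous fat the length correction left -0.11 on the log2 scale (edgeR adjusted p = 0.849). Its gonadal adjusted p was 0.0537 to 0.0760 without blood 2771 or 2683 or gonadal 2807 or 2668. Il12rb2 fell from 55.4 ± 2.26 to 23.4 ± 7.19 CPM in gonadal fat (SD, n = 4 each, edgeR adjusted p = 0.00479).

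Of 22 ligand genes only 9 had enough reads to test, and 6 of these rose in each depot, beside 15.4% of all genes. The count was 3 in subcutaneous fat when only its libraries and those of blood were fitted. The list medians, 4.17 and 4.38 on the log2 scale, were 3.74 and 3.79 with Il10, which had no read in blood, set to the limit of 3 reads per blood library. Osm encodes oncostatin M, a cytokine that signals through gp130 to STAT3. It went from 8.66, 11.2, 14.0 and 7.74 CPM in blood to 225.2, 326.2, 159.9 and 563 CPM in gonadal fat and 147.9, 390.2, 234 and 466.5 CPM in subcutaneous fat. No fat library came near the blood range, and the highest of each depot was again mouse 2668. The rise was 30.6-fold in gonadal (log2 fold change 4.93, SE 0.484, edgeR adjusted p = 3.56e-05) and 29.8-fold in subcutaneous fat (log2 fold change 4.90, SE 0.483, edgeR adjusted p = 4.01e-05), and both calls held in 22 of 22 alternatives. The other 5, Il13, Il6, Lif, Il10 and Tslp, averaged at most 11.3 CPM in any group and at most 0.534 CPM in blood. They passed the low-count filter through the fat libraries, so their direction was bound to that selection. The count of 6 and the list medians therefore do not show a rise of the ligands as a set. No read of Il3, Il11, Csf3, Il2, Il9 or Ctf1 was listed in any library.

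Of 15 tested genes known as STAT targets, 4 rose and 2 fell in each depot (median log2 fold changes -0.07 and 0.16). The genes that rose were Pim3, Junb, Bcl3 and Ccnd1, and those that fell were Ccnd3 in both, Id1 in gonadal and Myc in subcutaneous fat. The count of 2 that fell was 0 or 1 without any one of several libraries, namely blood 2771 and 2668 and the gonadal libraries in gonadal fat, and blood 2771, 2683 and 2668 and subcutaneous 2846, 2771 and 2668 in subcutaneous fat. Pim3, a kinase of the same family as Pim1, rose 10.1-fold in gonadal (11.1 ± 1.93 to 112 ± 30.6 CPM, SD, n = 4 each, edgeR adjusted p = 3.09e-05) and 14.3-fold in subcutaneous fat (159 ± 69.98 CPM, edgeR adjusted p = 1.35e-05). Junb, which also stands on the early response list, rose 5.67-fold and 6.52-fold, and Bcl3, a partner of NF-kB, 2.46-fold and 2.75-fold (edgeR adjusted p = 0.00267 and 0.00147). These rises of Pim3, Junb and Bcl3 held in 22 of 22 alternatives. Ccnd3, encoding cyclin D3, had log2 fold changes of -1.32 and -1.16 (edgeR adjusted p = 0.0241 and 0.0408), but of -0.21 and -0.09 when only coding transcripts were counted (edgeR adjusted p = 0.740 and 0.894). Leaving out blood 2771 or 2668 or gonadal 2807 gave Ccnd3 a gonadal adjusted p of 0.0631 to 0.0664. Leaving out any subcutaneous library or blood 2771, 2683 or 2668 gave a subcutaneous one of 0.0502 to 0.101. Myc had a log2 fold change of -1.38 in subcutaneous fat (edgeR adjusted p = 0.0350), with 0.0555 when mouse was a block and 0.0551 to 0.0783 without blood 2807, 2771 or 2668 or subcutaneous 2846, 2771 or 2668. In none of these lists was a gene called between gonadal and subcutaneous fat by edgeR; DESeq2 called 1 receptor gene and 1 STAT target lower in gonadal fat.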

How the data were processed

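RNA from sorted eosinophils of 12 libraries was extracted with a Norgen kit and made into SMARTer Stranded Total RNA-Seq v2 Pico libraries, per the labels' protocols. The submitters' processing notes name Trim Galore 0.6.4, Salmon 1.6.0, DESeq2 1.30.1 and the mm10 build. Annotation release, strand setting and the role of each tool are not given in the sources used here. Per the file headers, the deposited tables hold 1 row per transcript with estimated counts, TPM and effective length.

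Estimated counts were summed per gene identifier of the reference annotation and rounded, and gene symbols were attached afterwards. Of 140992 transcripts, 1201, with 0.351% to 0.538% of reads, had no match. TPM, as deposited by the authors, was summed to compare genes. CPM was scaled by TMM factors, and log2 CPM used a prior count of 2. The edgeR 4.0.16 quasi-likelihood test (R 4.3.3, filter by expression, group as the only term, 1 fit of all 12 libraries) gave 3 contrasts with Benjamini-Hochberg adjustment over 15367 genes. The script was tested on simulated data. The common biological coefficient of variation was 0.544.

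Mouse numbers in the labels mark the same animal, so they pair libraries. The correlation of deviations from the group means ran from -0.11 to 0.36 over 9 same-mouse pairs, with a mean of 0.084. Over 39 pairs of different mice it ran from -0.28 to 0.29, with a mean of -0.019. The highest same-mouse values, 0.26 to 0.36, all came from mouse 2668. The mouse block, DESeq2 1.42.0, voom of limma 3.58.1, RLE factors, no filter, an effective length offset, coding transcripts only, removal of mitochondrial ribosomal RNA, the 2 groups alone and the removal of each library were the alternatives. The joint removal of a subcutaneous library (mouse 2846) and a blood library (mouse 2807) was added after seeing the data. The members and lists were chosen with earlier results of these data known. Of each pathway list, up to 3 called genes per direction and comparison were named, those of largest change with a mean of 20 CPM or more in whichever of the compared groups was higher; other named list genes complete a count or were chosen after their values were seen. For genes of like pattern, the 3 nearest per gene were computed and those printed are the nearest of them. Intervals are 95% confidence intervals of the fitted log2 fold change. Their width reflects the spread between libraries, and they are not ranges that hold the single libraries. The result of 1 gene of the lists is not reported here.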

Additional observations from a re-analysis of the deposited data

Results flagged for a closer look

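Of 30 groups of 4 libraries (10 genes in 3 groups), 3 had a library far from the rest by Dixon's criterion, taken on CPM and not on log2 CPM. Its chance rate of about 1 in 20 holds for normally distributed values, which low counts in CPM need not be. The 3 are therefore not to be read as more than chance would flag. All 3 belonged to mouse 2668. Socs1 stood at 7.99 CPM in its blood library, with the next library at 2.41. Socs2 stood at 23.1 CPM in its gonadal library, with the next at 4.89, and at 13.3 CPM in its subcutaneous library, with the next at 3.28.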

How the results depend on the processing

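Over 660 single-gene alternatives of the 10 genes, 579 kept direction and side of the threshold, 42 lost the call, 15 gained it and 24 changed sign. Only results called in the main fit could lose a call, so the 42 are not to be read against all 660. The least stable calls were Socs3 in gonadal fat, kept in 7 of 22 alternatives, Stat5b in subcutaneous fat in 13 and Jak1 in gonadal fat in 15. The mouse block gave 1 lower gene in subcutaneous fat and changed, besides the values given with Socs3, Jak1 and Stat5b, no other call of the 10 genes. Leaving out 1 library gave 1 to 3 higher and 1 to 4 lower genes in gonadal fat, and 2 to 3 higher and 0 to 3 lower in subcutaneous fat. Lower genes in subcutaneous fat numbered 1 with no filter, 1 with coding transcripts only, 1 without the pair of libraries, and 0 with the length offset. No sign change passed the threshold, the lowest adjusted p among them being 0.406 (edgeR or limma). Against blood, Socs1 in gonadal fat was 0.034 in limma-voom and -0.58 to 0.52 with 1 library left out, and in subcutaneous fat -0.74 to 0.61. Stat3 with coding transcripts only was -0.17 in gonadal fat, -0.10 in subcutaneous fat and -0.063 between depots. Between depots, Socs1 was 0.12 with the mouse block and 0.29 in limma-voom, and Pim1 was 0.027 with the block and 0.0895 with the length offset. With 1 library left out, the depot differences ran from -0.40 to 0.44 for Socs1, -0.38 to 1.74 for Socs2, -0.14 to 0.092 for Jak2, -0.012 to 0.22 for Stat3, -0.14 to 0.063 for Stat5b and -0.26 to 0.22 for Pim1. The cause was not tested. The number of all genes higher in gonadal fat, 2372, was 3614 in limma-voom, and that of lower genes, 1780, was 2870. Lower genes in subcutaneous fat, 1755, were 1069 with coding transcripts only. DESeq2 called 41 genes higher and 126 lower in gonadal than in subcutaneous fat. Depth limits Socs1 and Socs2, whose smallest libraries held 8 and 0 reads.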
